A study of Mus musculus with 16 samples.

Results

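Flt1, Kdr and Flt4 are the 3 genes of the VEGF receptor family, and they were taken by symbol from a table of 12100 genes measured in 16 RNA sequencing libraries of mouse embryo fibroblasts (MEFs). They were chosen by their measured FPKM, as their levels differed in opposite directions between the lines and had been seen to move under TGFβ, so their own values are given as a description, with no test. The lines differ in Arkadia (gene Rnf111), a ubiquitin ligase that acts in TGFβ signalling. The sim line is Ark-/- MEFs given the retrovirus rvCAG-Arksim, which carries Arkadia mutated in its SUMO-interacting motif, and the rvWT line is Ark-/- MEFs given rvCAG-ArkWT, which carries the wild-type protein. The null line is Ark-/- MEFs and the WT line is Ark+/+ MEFs. Cells in DMEM with 10% serum were left untreated (0 h) or received TGFβ at 2.5 ng/ml for 1, 4 or 16 h, and their poly(A) RNA was sequenced in 2 batches. Set A held null and WT at 0, 1, 4 and 16 h, and set B held sim and rvWT at 0, 1 and 4 h and null at 0 and 1 h.

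Each line had 1 library per time in a set, so repeats of a line are its time points. The labels do not tell separate cultures apart, and a p-value here reflects scatter among libraries that can be partly technical. Both retroviral lines derive from the null MEFs, and no library of an empty virus was analysed here, so infection and the delivered protein cannot be told apart. As far as the labels say, WT and null are 1 line of MEFs each, and line and genotype cannot be told apart either. WT was sequenced only in set A and the retroviral lines only in set B. Rnf111 averaged 0.163 ± 0.0331 FPKM in null and 14.8 ± 0.306 in WT of set A (SD, n = 4 each). In set B it averaged 59.7 ± 3.30 FPKM in sim and 113 ± 11.9 in rvWT (SD, n = 3 each), against 0.481 ± 0.0646 in null (SD, n = 2), which follows the labels.

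VEGF receptors are receptor tyrosine kinases of the cell surface that dimerise when a secreted VEGF binds. Kdr (VEGFR2) carries most of the growth and migration signal of VEGF-A in blood vessel endothelium. Flt1 (VEGFR1) binds VEGF-A, VEGF-B and placental growth factor tightly with weak kinase output, and its soluble form acts as a trap for ligand. Flt4 (VEGFR3) binds VEGF-C and VEGF-D and is best known from lymphatic endothelium. All 3 are chiefly endothelial genes, and fibroblasts are not their usual place of study.

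The promoters are shown because the receptors differed in opposite directions between lines while their start regions share ETS and GC box motifs. Each is the 250 bases before the RefSeq start in build GRCm38.p6, written on the gene's strand from 5′ to 3′. That build is newer than the mm9 named for the expression values, which carry no coordinates. The windows are chr5:147726012-147726261 on the minus strand for Flt1, chr5:75978456-75978705 on the minus strand for Kdr, chr11:49609429-49609678 on the plus strand for Flt4, and chrX:164373272-164373521 on the plus strand for Figf (Vegfd in RefSeq), the gene of the Flt4 ligand VEGF-D. Capitals mark matches on either strand to the ETS core GGAAG, to the GC box motif GGGCGG or to the TATA box motif TATAAA, with no overlap between them.
Flt1: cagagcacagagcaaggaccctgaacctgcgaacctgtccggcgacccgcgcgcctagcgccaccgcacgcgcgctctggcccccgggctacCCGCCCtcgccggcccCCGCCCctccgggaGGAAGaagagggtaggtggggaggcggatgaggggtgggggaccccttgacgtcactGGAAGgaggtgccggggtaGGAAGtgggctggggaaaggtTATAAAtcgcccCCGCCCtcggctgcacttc
Kdr: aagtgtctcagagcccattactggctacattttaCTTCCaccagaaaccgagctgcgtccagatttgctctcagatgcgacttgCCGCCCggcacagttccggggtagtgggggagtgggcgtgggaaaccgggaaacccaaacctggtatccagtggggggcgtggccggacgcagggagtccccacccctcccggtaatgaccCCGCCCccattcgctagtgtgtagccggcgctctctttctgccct
Flt4: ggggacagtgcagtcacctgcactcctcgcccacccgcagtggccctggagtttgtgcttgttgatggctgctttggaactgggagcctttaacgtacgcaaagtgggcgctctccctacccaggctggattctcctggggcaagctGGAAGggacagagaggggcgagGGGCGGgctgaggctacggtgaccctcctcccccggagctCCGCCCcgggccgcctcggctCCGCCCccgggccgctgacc
Figf: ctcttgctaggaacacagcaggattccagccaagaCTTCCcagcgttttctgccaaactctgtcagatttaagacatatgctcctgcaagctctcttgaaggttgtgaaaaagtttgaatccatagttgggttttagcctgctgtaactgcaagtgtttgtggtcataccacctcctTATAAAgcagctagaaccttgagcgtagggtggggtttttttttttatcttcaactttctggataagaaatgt

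The Flt1 window held 3 GGAAG matches, and the Kdr, Flt4 and Figf windows 1 each. Matches to GGGCGG numbered 3 in Flt1, 2 in Kdr, 3 in Flt4 and 0 in Figf. TATAAA was present once in Flt1 and once in Figf. CAGAC (a SMAD element) and ACGTG (a hypoxia element) were searched for as well and were not in any of the 4 windows. Of 32851 RefSeq promoter windows of the same length, 64.1% held GGAAG, 32.7% GGGCGG, 12.4% TATAAA, 42.2% CAGAC and 16.6% ACGTG. The receptor windows were rich in CG, with 23 CG pairs in Flt1 and 16 each in Kdr and Flt4. The median over all windows was 6, and Figf held 2. Of all windows, 86.7% held fewer CG pairs than Flt1 and 74.6% fewer than Kdr or Flt4. Sequence matches describe these windows only, and no binding was measured.

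Levels are FPKM, the authors' fragment values scaled to transcript length and library, and the change between groups is given on the log2(FPKM + 1) scale, which understates the change of low values. Read depth is unknown, so the scatter between libraries is the measure of precision. None of the receptor values was 0, but several were low, down to 0.122 FPKM. Flt4 averaged 0.346 FPKM in set B, where the lowest gene mean in the table was 0.25, and lay under the mean of 1 FPKM required for the fits of that set. Flt1 and Kdr passed this filter in both sets, and Flt4 passed it in set A and over all 16 libraries.

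In set A the lines differed in which receptor was most abundant. Null MEFs had Kdr as their highest receptor in all 4 libraries, and WT MEFs had Flt4. Flt4 was at 0.742, 0.769, 0.543 and 0.240 FPKM in null at 0, 1, 4 and 16 h, and at 32.1, 33.2, 18.7 and 16.0 FPKM in WT. The groups were far apart, with WT 43.3, 43.2, 34.5 and 66.8 times as high as null at the matched times. On the log2 scale Flt4 was lower in null by a mean difference of -4.00 ± 0.31 (SD over 4 time-matched pairs).

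Kdr had the opposite direction. It stood at 3.87, 4.30, 4.65 and 5.43 FPKM in null over the time course and at 0.237, 0.429, 0.938 and 0.939 FPKM in WT. Every null library was above every WT library, with a mean log2 difference of 1.78 ± 0.19 (SD, 4 pairs). Null over WT ratios ran from 4.95 at 4 h to 16.3 at 0 h, where WT Kdr was lowest.

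Flt1 was present in both lines at a smaller distance. Null had 1.74, 1.93, 2.81 and 4.33 FPKM and WT had 8.24, 9.59, 12.6 and 7.55 FPKM at 0, 1, 4 and 16 h. The lines did not overlap, and the mean log2 difference was -1.53 ± 0.57 (SD, 4 pairs). The pair at 16 h stood apart at -0.68, against -1.75 to -1.85 at the earlier times, as null was at its highest and WT at its lowest there. RNA of whole cultures cannot tell fewer cells that express a gene from less RNA per cell.

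**Figure D1:**
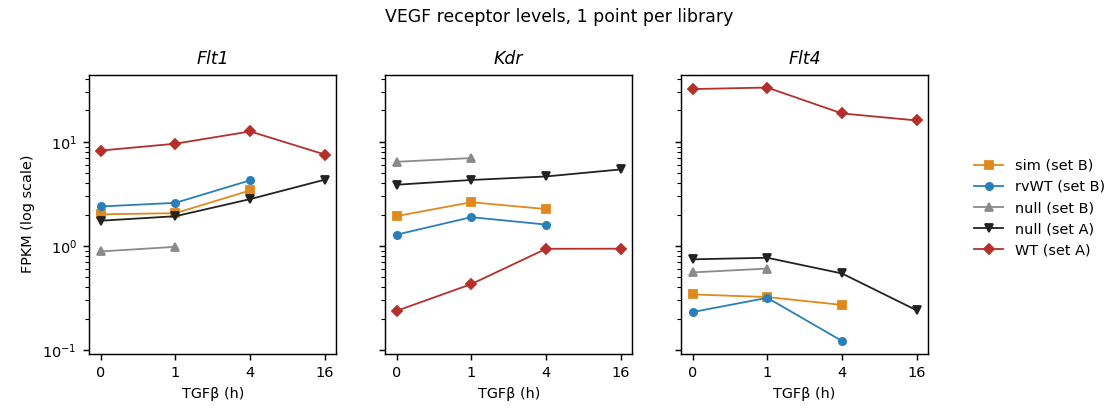
FPKM (log scale) of Flt1, Kdr and Flt4 against hours of TGFβ, with 1 point per library and a line for each line of MEFs in a set. WT lies on top for Flt1 and Flt4 and at the bottom for Kdr, and Flt4 in WT (16.0 FPKM or more) is separated from all other libraries (0.769 FPKM or less).

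In set B, both retroviral lines had more Flt1 and less Kdr than null. Flt1 was at 2.01, 2.06 and 3.41 FPKM in sim and 2.39, 2.59 and 4.27 FPKM in rvWT at 0, 1 and 4 h, and at 0.884 and 0.979 FPKM in null at 0 and 1 h. No retroviral library came as low as null. Sim and rvWT share the null libraries they are set against. The mean log2 difference from null was 0.65 ± 0.03 in sim and 0.85 ± 0.01 in rvWT (SD over 2 time-matched pairs).

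Kdr was at 1.93, 2.63 and 2.26 FPKM in sim, at 1.28, 1.89 and 1.60 FPKM in rvWT, and at 6.42 and 6.98 FPKM in null. The 3 lines did not overlap, and sim lay between rvWT and null. The mean log2 difference from null was -1.24 ± 0.14 in sim and -1.58 ± 0.17 in rvWT (SD, 2 pairs).

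Flt4 was low in every library of set B and did not approach its WT level. It was at 0.342, 0.322 and 0.271 FPKM in sim, at 0.231, 0.317 and 0.122 FPKM in rvWT, and at 0.556 and 0.605 FPKM in null. The null libraries were the highest, and sim and rvWT overlapped. The difference from null was -0.25 ± 0.05 in sim and -0.31 ± 0.04 in rvWT (SD, 2 pairs). Flt1 and Kdr thus lay on the WT side of null in the retroviral lines, and Flt4 did not.

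Sim and rvWT lay close together. Rnf111 mRNA was lower in sim than in rvWT, so the mutated motif and the Arkadia level cannot be told apart here. Over 3 time-matched pairs sim minus rvWT was -0.22 ± 0.04 for Flt1, 0.34 ± 0.02 for Kdr and 0.10 ± 0.09 for Flt4 (SD). The Kdr ranges of sim (1.93 to 2.63 FPKM) and rvWT (1.28 to 1.89 FPKM) were narrowly apart, and the Flt1 ranges overlapped.

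The null line itself differed between sets, which limits any comparison of levels across them. Null of set B minus null of set A at 0 and 1 h was -0.55 ± 0.02 for Flt1, 0.60 ± 0.01 for Kdr and -0.15 ± 0.02 for Flt4 (SD, 2 pairs). For Flt1, null of set A (1.74 to 4.33 FPKM) overlapped with sim and rvWT, although null of set B did not. The order of mean Kdr was null of set B, null of set A, sim, rvWT and WT, and none of these ranges overlapped with the next. For Flt1 the order was WT, rvWT, null of set A, sim and null of set B, where the middle 3 overlapped. For Flt4 WT was 20.9-fold above the highest other library when its lowest value was used, and each of the other lines overlapped with its neighbour in the order.

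As shares of the summed FPKM of the 3 genes, null and WT hardly resembled each other. Flt4 made up 2.4% to 11.7% in null of set A and 58.1% to 79.1% in WT. Kdr made up 54.3% to 61.5% in null of set A and 0.584% to 3.83% in WT. Within set B, Kdr held 38.0% to 52.4% in sim, 26.7% to 39.4% in rvWT and 81.5% to 81.7% in null. The order Kdr, Flt1, Flt4 was found in 7 libraries, Flt1, Kdr, Flt4 in 5 and Flt4, Flt1, Kdr in 4, which were the WT libraries. The sum of the 3 was 6.35 to 10.0 FPKM in null of set A and 24.5 to 43.2 FPKM in WT.

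**Figure D2:**
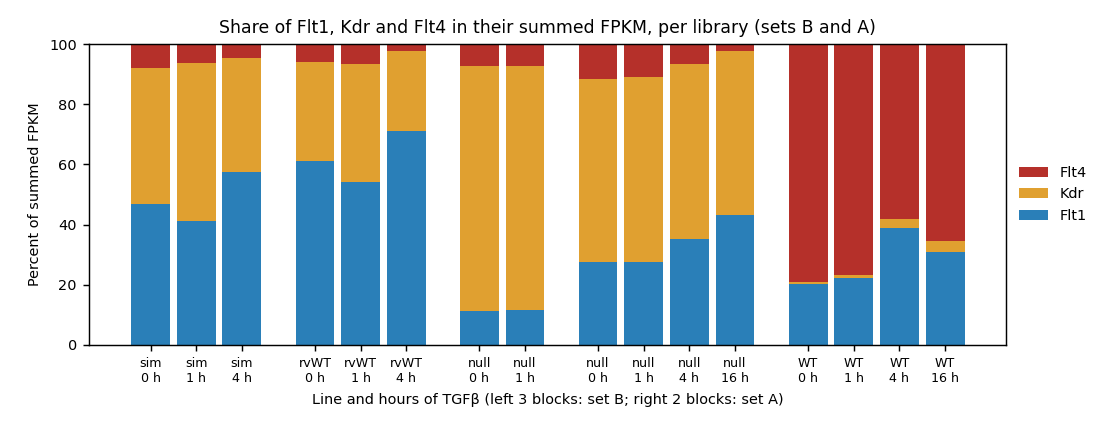
Percent of the summed FPKM of the 3 receptors held by Flt4, Kdr and Flt1 (stacked from top to bottom), with 1 bar per library in order of line and hours of TGFβ. Flt4 fills 58.1% or more of each WT bar and 11.7% or less of every null bar.

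The TGFβ response was small at 1 h, and at 4 h Flt1 and Kdr were higher and Flt4 lower. Relative to 0 h of the same line, Kdr at 1 h was higher in all 5 time series by 0.22 ± 0.11 on the log2 scale (SD, n = 5), Flt1 by 0.09 ± 0.06 in all 5, and Flt4 by 0.04 ± 0.04 in 4 of 5. At 4 h Flt1 was higher by 0.55 ± 0.07 (SD, n = 4 series), with 0.55 in sim, 0.64 in rvWT, 0.47 in null and 0.56 in WT. These 4 values lay close together.

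Kdr at 4 h was higher by 0.30 ± 0.23 (SD, n = 4), and WT had the largest difference at 0.65 against 0.15 to 0.21 in the other series. In WT the gene was 3.95 times its 0 h level at 4 h, though from a start of 0.237 FPKM. Flt4 at 4 h was lower in all 4 series by -0.28 ± 0.31 (SD), with -0.75 in WT and -0.08 to -0.18 elsewhere. Outside WT Flt4 was under 1 FPKM, where the log2(FPKM + 1) scale understates the change. As ratios to 0 h the values were 0.583 in WT, 0.528 in rvWT, 0.731 in null and 0.793 in sim. At 16 h, measured in set A, the difference from 0 h for Kdr was 0.40 in null and 0.65 in WT. For Flt4 it was -0.49 in null and -0.96 in WT. By ratio the order for Flt4 was reversed, at 0.323 of 0 h in null and 0.499 in WT, with null at 0.240 FPKM by then. Flt1 at 16 h was 0.96 above 0 h in null and -0.11 in WT, so the lines moved in opposite directions, with 1 library at each point and no test.

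The genes of the VEGF system around the receptors were tested with limma, with Benjamini-Hochberg adjustment over all genes and an adjusted p under 0.05. The lists held 112 genes of ligands, co-receptors, transducers, related kinases, transcription factors, hypoxia targets and other angiogenic regulators, of which 90 were measured. Between null and WT, 67.5% of all 10976 genes tested passed (30.1% higher and 37.4% lower in null). Of 85 listed genes tested, 49 were higher in null, 17 lower and 19 did not pass, with a median log2 difference of 0.36 against -0.07 over all genes. A share of this size in the background leaves little to read from a single call, and sizes are given below.

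Among the ligands Figf, which encodes VEGF-D, stood opposite to its receptor Flt4. It was at 61.8, 52.5, 32.8 and 14.4 FPKM in null of set A over the time course and at 1.45, 1.92, 0.914 and 0.754 FPKM in WT. The lines were widely apart, and the difference was 4.04 ± 0.25 (SE) with adjusted p = 0.000153 by limma, higher in null in 4 of 4 pairs. So the line with Flt4 had little VEGF-D mRNA, and the line with VEGF-D mRNA had little Flt4. In set B Figf was at 110.8, 103.4 and 41.8 FPKM in sim, at 87.9, 78.9 and 27.8 FPKM in rvWT, and at 119.3 and 107.5 FPKM in null, all far above WT. The difference from null was -0.05 in sim (limma adjusted p = 0.626) and -0.48 in rvWT (0.00455). The rvWT call was lost when null 0 h of set B was left out (adjusted p = 0.0522).

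The other ligands differed little between null and WT. Of 5 ligands 2 passed, both higher in null (40.0% called, against 67.5% of all genes). Vegfb, a ligand of Flt1, differed by 0.32 (limma adjusted p = 0.0393), a call lost when any of 6 of the 8 libraries was left out, with adjusted p up to 0.135. Vegfa, the main ligand of Kdr, differed by 0.44 (limma adjusted p = 0.0812), Vegfc by 0.04 (0.698) and Pgf by -0.06 (0.800), all short of the threshold.

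TGFβ moved several ligands. At 1 h 5.96% of 11045 genes passed the limma test (3.95% higher, 2.01% lower), and 12 of 88 listed genes were higher and 3 lower. At 4 h 39% of all genes passed (11.9% higher, 27.1% lower), with 24 listed genes higher and 26 lower, and at 16 h 19.4% passed (6.84% higher, 12.5% lower), with 20 higher and 17 lower. After median-ratio scaling the split at 4 h was 30 higher and 21 lower, and after quantile normalization 25 higher and 19 lower.

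Vegfa had 14.6, 25.6, 23.9 and 35.3 FPKM in null of set A at 0, 1, 4 and 16 h and 8.95, 29.7, 17.8 and 18.2 FPKM in WT. In set B it had 9.66, 41.3 and 39.5 FPKM in sim, 12.2, 50.9 and 65.9 FPKM in rvWT, and 12.0 and 21.6 FPKM in null. Every treated library was above the 0 h library of its series. The rise was 1.43 at 1 h, 1.39 at 4 h and 1.36 at 16 h (limma adjusted p = 0.00591, 0.00359 and 0.0228). Within set A alone none of these passed (adjusted p = 0.351, 0.234 and 0.104), while set B alone gave 1.59 at 1 h and 1.94 at 4 h (adjusted p = 0.0371 and 0.00841). The call at 16 h was lost without the null 16 h library (adjusted p = 0.288).

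Pgf rose by 1.23 at 1 h (limma adjusted p = 0.000916), higher in 5 of 5 series, with 5.47 FPKM against 1.06 in null of set A and 5.02 against 2.14 in WT. The call did not pass in set A alone (adjusted p = 0.291). At 4 h it was higher by 0.51 (limma adjusted p = 0.0323), which was lost without any of 7 libraries. Vegfc rose by 0.88 at 16 h (limma adjusted p = 0.000534), to 12.2 FPKM in null and 10.4 in WT, against 5.12 and 5.94 at 0 h. Figf fell by 1.07 at 4 h and by 1.44 at 16 h (limma adjusted p = 0.00535 and 0.00845), lower in every series. Within set A alone the 4 h change of Figf was -0.62 (adjusted p = 0.402) and within set B -1.51 (adjusted p = 0.000542), and the 16 h call was lost without the null 16 h library (adjusted p = 0.169). Figf and Flt4 were thus both lower at 4 and 16 h than at 0 h in each series.

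**Figure D3:**
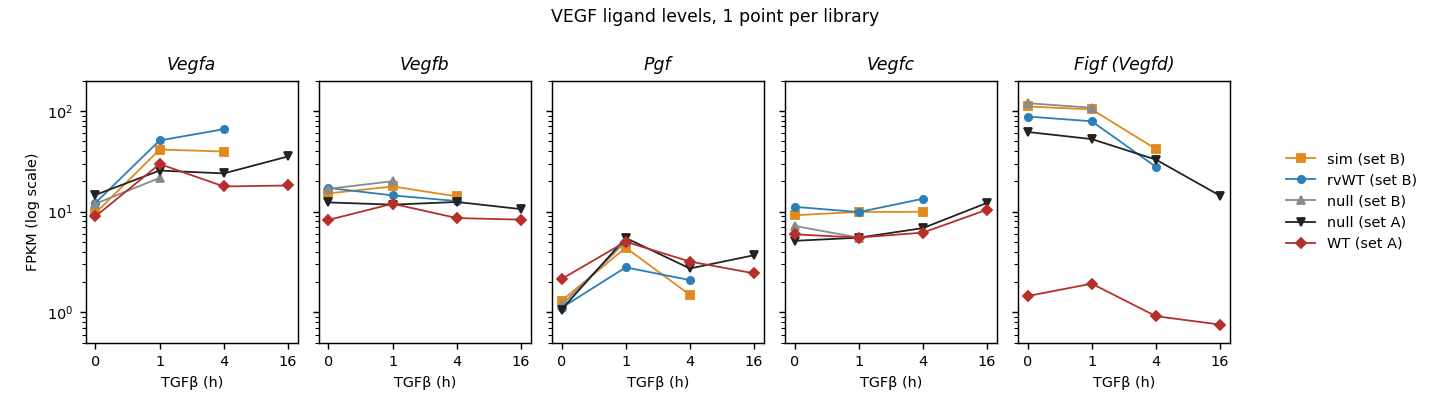
FPKM (log scale) of the 5 VEGF ligand genes against hours of TGFβ, with 1 point per library. Figf in WT (0.754 to 1.92 FPKM) lies under all other libraries (14.4 FPKM or more), and Vegfa and Pgf are higher at 1 h than at 0 h in all 5 series.

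All 8 measured co-receptors and partners in receptor trafficking differed between null and WT, 5 higher and 3 lower in null. Of all genes 67.5% were called there. The caveolin Cav1, found in membrane pits that hold Kdr, was at 262 to 305 FPKM in null and 60.9 to 77.6 FPKM in WT, a difference of 2.03 (limma adjusted p = 2.47e-05). The neuropilins, which bind VEGFs beside the receptors, were higher, Nrp2 by 2.04 and Nrp1 by 0.37 (limma adjusted p = 0.000655 and 0.00318). Dab2, an endocytic adaptor, was higher by 1.05 (limma adjusted p = 0.000269) and the phosphatase Ptprj, which acts on Kdr, by 0.31 (0.0133). Ptprj lost its call without null 1 h or WT 1 h (adjusted p up to 0.0523), and Ptprj and Nrp1 lost theirs with the null libraries of both sets.

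The 3 that were lower in null were the integrin Itgb3 at -1.96 (limma adjusted p = 3.35e-05), the ephrin Efnb2 at -1.29 (0.000943) and its receptor Ephb4 at -0.53 (0.0116). Itgb3 forms a complex with Kdr in endothelium, and Efnb2 guides uptake of Kdr and Flt4 there. Itgb3 was at 1.57 to 4.04 FPKM in null and 8.22 to 20.1 FPKM in WT. Pdgfrb, the only one of the related type III kinases that could be tested, was higher in null by 1.06 (limma adjusted p = 0.00159).

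In the retroviral lines Dab2 and Itgb3 lay on the WT side of null, Nrp1 and Pdgfrb on the side away from WT, and Nrp2 and Ephb4 did not pass the test. Of all 10958 genes tested in set B, 34.7% differed between sim and null (13.9% higher, 20.8% lower) and 38.6% between rvWT and null (16% higher, 22.6% lower). Of 87 listed genes, 22 were higher and 27 lower in sim, and 23 higher and 29 lower in rvWT. Left-out libraries lowered these counts to 28 called genes in sim (without null 0 h of set B) and to 30 in rvWT (without the same library).

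Dab2 was at 50.3, 44.8 and 29.3 FPKM in sim, at 40.1, 38.0 and 22.7 FPKM in rvWT, and at 137.0 and 135.9 FPKM in null. The retroviral lines were far under null, by -1.49 in sim and -1.79 in rvWT (limma adjusted p = 0.000133 and 5.86e-05). Itgb3 was at 4.10, 6.58 and 13.0 FPKM in sim, at 4.07, 7.20 and 12.5 FPKM in rvWT, and at 1.55 and 2.05 FPKM in null. The difference from null was 1.18 in sim and 1.19 in rvWT (limma adjusted p = 0.00145 and 0.00114). Itgb3 also rose with TGFβ, by 0.47 at 1 h, 1.23 at 4 h and 0.83 at 16 h (limma adjusted p = 0.00387, 1.32e-05 and 0.000617), where the 1 h call passed in neither set alone. Dab2 and Cav1 fell by 0.52 and 0.49 at 4 h (limma adjusted p = 0.00376 and 0.00809), again not in set A alone.

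Other partners differed less from null or had the direction away from WT. Nrp2, at -0.03 in sim and -0.32 in rvWT (limma adjusted p = 0.945 and 0.438), and Ephb4, at -0.14 and -0.17 (0.387 and 0.313), did not pass. Cav1 was at -0.46 in sim and -0.56 in rvWT (limma adjusted p = 0.0457 and 0.0230), and these calls were lost without any of 6 and 4 of the 8 libraries. Ptprj was at -0.67 in sim and -0.64 in rvWT (limma adjusted p = 0.0152 and 0.0155), lost without either null library in sim (up to 0.108) and without any of 4 libraries in rvWT (up to 0.109). Nrp1 was at 0.41 in sim and 0.36 in rvWT, in the direction away from WT (limma adjusted p = 0.00643 and 0.00890). Both Nrp1 calls were lost without null 0 h (adjusted p = 0.0719 in sim, up to 0.0880 in rvWT), and that of rvWT also without rvWT 0 h. Pdgfrb was higher by 0.76 in sim and 0.78 in rvWT, again away from WT (limma adjusted p = 0.0111 and 0.00904), and the sim call was lost without sim 1 h, narrowly. Efnb2 was at 0.31 in sim and 0.45 in rvWT (limma adjusted p = 0.0909 and 0.0296), and the rvWT call was lost without any of 5 libraries. Vegfc was higher by 0.48 in sim and 0.70 in rvWT (limma adjusted p = 0.0327 and 0.00918), lost without any of 6 libraries in sim and without null 1 h in rvWT (adjusted p = 0.0766).

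By limma 0 of 87 listed genes differed between sim and rvWT, with 22 at an unadjusted p under 0.05 and 2 called with robust variances, and 0.493% of all genes passed (0.356% higher, 0.137% lower). The TGFβ response of null against that of WT was tested as a single difference pooled over the treated times. It gave 0 of 88 listed genes by limma, with 9 at an unadjusted p under 0.05. Of all genes 0.0181% passed (0.00905% in each direction). A difference at any one time was not tested. A miss of the threshold with 1 library per line and time does not show that the responses were alike.

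Of 27 signal transducers tested, 10 were higher and 8 lower in null than in WT (66.7% called, against 67.5% of all genes). The kinase Prkca was lower by a difference of -1.08 (limma adjusted p = 0.000144), the phospholipase Plcg1, which docks on Kdr, by -0.77 (0.000207), and the adaptor Grb2 by -0.59 (0.000345). The GTPase Rac1 was higher by 0.45 (0.000325) and the kinase Mapkapk2 by 0.62 (0.000343). In set B, 3 transducers were higher and 11 lower in sim than in null, and 4 higher and 11 lower in rvWT. The called shares were 51.9% in sim and 55.6% in rvWT, against 34.7% and 38.6% of all genes. The small heat shock protein Hspb1, which Mapkapk2 phosphorylates, was at -1.53 in sim and -1.52 in rvWT (limma adjusted p = 0.000160 and 0.000113). The kinase Fyn was at 1.11 in sim and 1.27 in rvWT (0.000568 and 0.000304). Between null and WT neither passed, with Hspb1 at 0.09 and Fyn at -0.34 (limma adjusted p = 0.411 and 0.0951).

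Of 14 transcription factors known to act on VEGF receptor genes in endothelium, 11 were higher and 2 lower in null than in WT. The called share was 92.9%, against 67.5% of all genes. Fli1, an ETS factor, was at 2.24 to 2.91 FPKM in null and 0.115 to 0.179 FPKM in WT, a difference of 1.68 (limma adjusted p = 0.000144). Gata2, which drives Kdr in endothelium, was higher by 0.88 (limma adjusted p = 0.00109) and Foxo1 by 0.84 (0.000900). Ets1 was lower at -0.39 (limma adjusted p = 0.00535). The hypoxia factor Epas1 was higher by 0.76 in null of set A, and in set B was at -1.15 in sim and -1.31 in rvWT (limma adjusted p = 0.00325, 0.000742 and 0.000386). In set B, where Kdr was also lower in both retroviral lines than in null, Fli1 was at 0.02 in sim and -0.03 in rvWT (limma adjusted p = 0.933 and 0.853), and Gata2 did not pass either (0.999 and 0.962). No factor was tested for an effect on a receptor.

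After TGFβ, Gata2 rose by 0.99 at 1 h (limma adjusted p = 0.000174), higher in 5 of 5 series, with 16.9 FPKM against 7.68 in null of set A and 7.13 against 4.72 in WT. At 4 h it was below 0 h in 4 of 4 series, at -0.29 (limma adjusted p = 0.0507), and at 16 h at -0.10 in 2 of 2 (0.649). Foxo1 rose by 0.82 and Foxc2 by 1.00 at 1 h (limma adjusted p = 0.000386 and 0.00464). Elk3, an ETS repressor, rose by 0.34, 0.71 and 0.65 at 1, 4 and 16 h (limma adjusted p = 0.00441, 6.02e-05 and 0.000487). In set A alone the calls for Gata2, Foxo1 and Elk3 did not pass.

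Hypoxia-inducible targets, to which Vegfa belongs in many cells, were mostly higher in null than in WT. Of 14 tested, 12 were higher, 0 lower and 2 did not pass, with a median difference of 1.48. The called share was 85.7%, against 67.5% of all genes. Bnip3 differed by 2.40, Slc2a1, a glucose transporter, by 1.84 and P4ha1 by 1.67 (limma adjusted p = 0.000215, 0.000175 and 2.48e-05). In set B 2 were higher, 5 lower and 7 did not pass in each retroviral line. Of all genes 34.7% were called in sim and 38.6% in rvWT. The list median was -0.12 in sim and -0.0099 in rvWT. The largest decrease was that of Car9, at -1.92 in sim and -2.09 in rvWT (limma adjusted p = 0.000310 and 0.000189). The 2 higher were Ddit4, at 0.72 and 1.03 (0.00380 and 0.00102), and Ankrd37, at 0.47 and 0.58 (0.0395 and 0.0192). Bnip3 did not pass, at 0.11 and 0.15 (0.540 and 0.395).

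Of 16 other angiogenic regulators tested, 8 were higher and 4 lower in null than in WT (75.0% called, against 67.5% of all genes). Serpinf1 (PEDF) and Thbs2, both inhibitors of vessel growth, were higher by 2.78 and 2.66 (limma adjusted p = 7.86e-05 and 9.85e-05). Sema3d, a guidance factor, was at -2.88, the Notch ligand Jag1 at -1.90 and Angptl4 at -1.64 (limma adjusted p = 1.25e-05, 0.000384 and 0.000164). Jag1 was higher than in null by 0.92 in sim and 0.88 in rvWT, and rose by 1.62 at 4 h of TGFβ (limma adjusted p = 0.00237, 0.00242 and 0.000101), the last not in set A alone. Jag1 thus lay on the WT side of null, but Sema3d, Serpinf1 and Thbs2 lay on the side away from WT. Against null, Sema3d was at -0.90 in sim and -1.11 in rvWT (limma adjusted p = 0.00194 and 0.000843). Serpinf1 was at 1.27 and 1.33 (0.000225 and 0.000146), and Thbs2 at 0.57 and 0.29 (0.00353 and 0.0288).

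**Figure D4:**
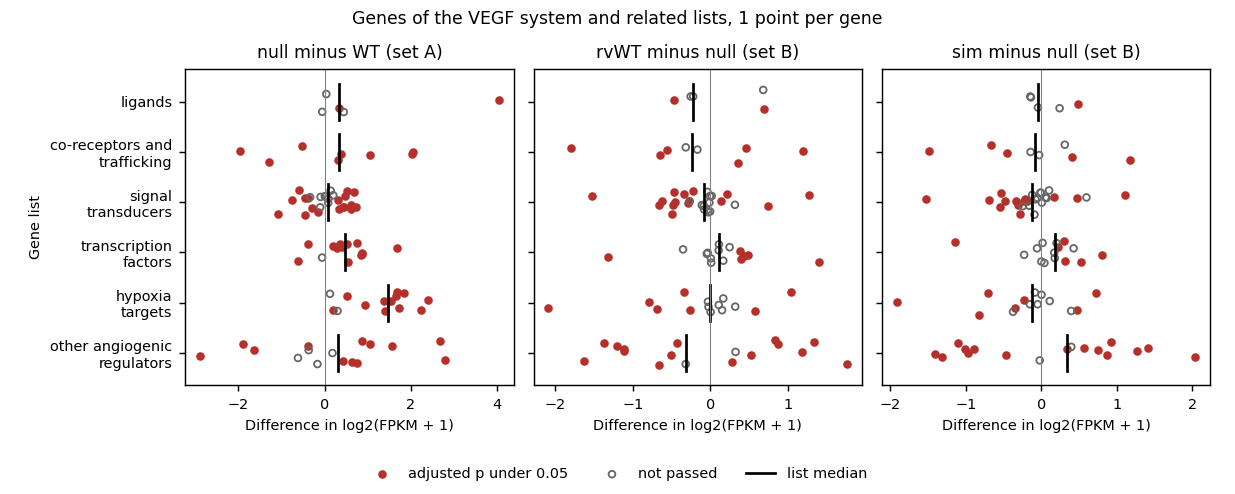
Difference in log2(FPKM + 1) for each tested gene of 6 lists (filled where the limma adjusted p is under 0.05), for null minus WT in set A and for rvWT and sim minus null in set B, with the list median as a bar. In the first panel Figf is the ligand at 4.04 and the hypoxia targets centre on 1.48.

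Markers of other cell types were set beside these results. Of 16 endothelial markers 3 were in the table (Tek, Eng and Egfl7), and Pecam1 and Cdh5 were not analysed here. Their summed level was 2.80 to 6.75 FPKM in null of set A and 5.54 to 7.90 FPKM in WT, and 7.02 to 10.5 FPKM in sim, 6.05 to 9.03 FPKM in rvWT and 8.77 to 8.97 FPKM in null of set B. Tek, the angiopoietin receptor, was at 0.707 to 2.43 FPKM in null of set A and at 0.0149 FPKM or less in WT, the direction of Kdr and the reverse of Flt4, but did not pass the filter on low values in set A and was not tested there. Egfl7, the only one of the 3 tested in set A, had the other direction, at -0.70 (limma adjusted p = 0.0231) and lower in null in 4 of 4 pairs, a call lost without null 4 h or WT 4 h. Of 8 lymphatic endothelial markers only Nr2f2 was in the table.

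Epithelial markers (5 of 8) summed to 26.0 to 54.0 FPKM in null of set A and 281 to 529 FPKM in WT, in WT largely Krt19, which was at 1.53 to 4.91 FPKM in null and 267 to 519 FPKM in WT. Krt19 was the only one of the 5 called lower in null, at -6.56 (limma adjusted p = 4.02e-06), while Krt7 at 2.51, Krt8 at 1.87 and Krt18 at 0.55 were higher in null (7.19e-05, 0.00201 and 0.00805), and Krt14 at -0.76 did not pass (0.0772). Fibroblast markers (8 of 10) summed to 3044 to 4250 FPKM in null of set A and 1902 to 2517 FPKM in WT. Of these 7 were higher in null, and Fbln2 was lower at -0.50 (limma adjusted p = 0.00108). Mural cell markers (5 of 8) summed to 1269 to 3150 FPKM in null of set A and 523 to 971 FPKM in WT. Here 3 were higher in null, Cspg4 was lower at -1.75 (limma adjusted p = 0.000146) and Des did not pass (0.195). The called share was 80.0%, as it was among the epithelial markers, against 67.5% of all genes. Haematopoietic markers (3 of 8) summed to 12.9 to 16.4 FPKM in null of set A and 6.36 to 7.97 FPKM in WT. Their members were split, with Cd14 higher in null at 1.70 and Cd68 lower at -0.96 (limma adjusted p = 0.000246 and 0.00130). Csf1r was not tested. With 67.5% of all genes called, calls in marker lists this short carry little weight. The part of cell composition in the receptor differences was not tested.

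The genes most like each receptor were taken by Pearson correlation of log2(FPKM + 1) over the 16 libraries among 11044 genes. The libraries share lines and sets and fall into groups by line, so these values describe line patterns and carry no test. Flt4 was most like Hmha1 (r = 0.996), Krt19, Trf, Fam129a and Aig1, and 191 genes reached an r of 0.95. Kdr was most like Bmp6 (r = 0.978), Klhl30, Synpo2l, Ppfibp2 and Ms4a3, with 28 genes at 0.95 or above. Flt1 was most like Hspa4 (r = 0.980), Ltbp1, Ddx31 and Tsr1, with 25 genes. Between the receptors r was 0.82 for Flt1 and Flt4, -0.79 for Flt1 and Kdr, and -0.72 for Kdr and Flt4.

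After subtraction of each series' mean, which leaves the TGFβ time course, the likeness changed. Flt4 and Kdr were still opposed at r = -0.80, Flt1 and Kdr were at 0.41 and Flt1 and Flt4 at -0.38. On this scale Flt4 and Kdr changed most in WT at 4 and 16 h, where Kdr started from 0.237 FPKM. Flt4 was under 1 FPKM in all other lines, so the r of -0.80 leans on WT. Flt1 was then most like Tnfrsf11b (r = 0.956), Mcfd2, Tbc1d20, Xbp1 and Uhrf1bp1l, Kdr most like Amotl1 (r = 0.944), Nupr1, Sox11, Acads and Nudt18, and Flt4 most like Cyp2s1 (r = 0.967), Atp11a, Ccnd3, Hid1 and Akr1c14. Figf and Flt4 were at -0.90 over the libraries and at 0.58 after the subtraction. They were thus opposed between WT and the other lines and in part alike over the time course. Within set B they were not opposed, as rvWT minus null was -0.48 for Figf and -0.31 for Flt4. Sim minus null was -0.05 and -0.25. The opposition over the libraries was not particular to Flt4. Figf and Flt1 were at -0.95 over the libraries and -0.86 after the subtraction, and Figf and Kdr at 0.68 and -0.47.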

How the data were processed

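Poly(A) RNA of MEF lines was sequenced as stranded libraries. The authors deposited 1 table of FPKM values for 12100 genes in 16 libraries. Genome build mm9 and, without order, Cufflinks 2.2.1, STAR 2.3.0e, CASAVA 1.8.2 and SAMtools appear in the submitters' processing notes. The role of each tool and the handling of multiply mapped reads are not stated there, and each row names 1 RefSeq transcript. Total FPKM per library ran from 397019 to 481970, and depth is unknown.

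Values were transformed as log2(FPKM + 1) and filtered at a mean of 1 FPKM over the libraries of a fit. limma 3.58.1 (limma-trend, R 4.3.3) was used with Benjamini-Hochberg adjustment over all genes tested and a threshold of 0.05, and was tested on simulated data. Line differences were fitted within a set with time as a factor, and TGFβ responses over all 16 libraries with the 5 time series as a factor. Receptor differences are means over time-matched pairs with their SD. Set A and set B follow the names of the libraries, and the design text speaks of 2 batches.

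The members, gene lists, motifs and alternatives were chosen with earlier results of these data known. Named genes were the receptors, Rnf111, all ligands, co-receptors and type III kinases measured, up to 6 genes with the smallest p of each other list, and the 5 most correlated genes per receptor, of which 1 is not reported here. Some list genes were named outside this rule, after their values were seen, in comparisons where they were not among the 6. These include Ankrd37, Bnip3, Car9, Epas1, Ets1, Fyn, Hspb1, Jag1 and Thbs2. Tek, Egfl7, the keratins, Cd14, Cd68, Csf1r, Cspg4, Des, Fbln2 and the neighbouring genes were also named outside it. Alternatives were other pseudocounts, filters, scalings and variance models, single sets and single libraries left out. Promoter sequences are from RefSeq (GRCm38.p6), and all 4 genes matched by symbol, Figf through its current symbol Vegfd.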

Additional observations from a re-analysis of the deposited data

Results flagged for a closer look

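Flt1 at 16 h of TGFβ differed from 0 h by 0.96 on the log2(FPKM + 1) scale in null of set A and by -0.11 in WT. It stands out because the lines moved in opposite directions. Each value rests on 1 library per time, and the difference was not tested. In null Flt1 was at 4.33 FPKM at 16 h, against 1.74 FPKM at 0 h, and in WT at 7.55 FPKM at 16 h, against 8.24 FPKM at 0 h. WT had its highest value, 12.6 FPKM, at 4 h.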

How the results depend on the processing

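The receptor differences kept their direction under all alternatives run except Flt1 at 16 h, which ran from -0.11 to 0.96 and became -0.11 without the null 0 h or the null 16 h library of set A, as only WT was left. Of 132 receptor values with a library left out, 130 stayed within the spread, and of 84 under other alternatives 46 did and 38 moved, mostly with the pseudocount. With a pseudocount of 0.1, null minus WT was 2.80 for Kdr and -5.24 for Flt4, rvWT minus null was 1.33 for Flt1, -2.04 for Kdr and -0.87 for Flt4, sim minus null was 1.05, -1.53 and -0.66, and 4 h minus 0 h was 0.70 for Flt1 and 0.60 for Kdr. With a pseudocount of 5, null minus WT was -0.91 for Flt1, 0.76 for Kdr and -2.38 for Flt4, rvWT minus null was 0.34, -0.83 and -0.082, sim minus null was 0.25, -0.69 and -0.066, and 4 h minus 0 h was 0.30 for Flt1. Quantile normalization gave 1.00 for Flt1 and -0.20 for Flt4 in rvWT minus null, 0.78 and -0.16 in sim minus null, and 0.68 for Flt1 at 4 h. Median-ratio scaling gave 0.88 for Flt1 in rvWT minus null.

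Counts of listed genes called by limma depended most on the set. In set A alone 0 passed at 1 h of TGFβ against 15 with both sets, 1 at 4 h against 50, and 7 at 16 h against 37, with fewer libraries. Robust variances called 2 genes between sim and rvWT against 0. With a library left out, the counts ran from 30 to 54 for rvWT minus null (52 with all), from 28 to 44 for sim minus null (49 with all) and from 16 to 42 at 16 h (37 with all), the lowest at 16 h without the null 16 h library. For sim minus null the count was 32 without sim 0 h, 28 without null 0 h and 30 without null 1 h of set B, and for rvWT minus null it was 30 without null 0 h of set B. No scaling moved the median of all genes by more than 0.1. Depth is unknown, and values of Flt4 outside WT lie near the lowest gene means of the table.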

Other observations

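The chromosomal neighbours of the receptors were looked at after the values had been seen. Kdr lies beside Kit and Pdgfra on chromosome 5, which were not analysed here. On its other side Srd5a3 differed between null and WT by 0.09 (limma adjusted p = 0.231), Tmem165 by 0.27 (0.00687) and Clock by 0.52 (0.00163). Beside Flt1, Pan3 differed by 0.22 (limma adjusted p = 0.0140) and Pomp by 0.05 (0.300). Slc46a3, also beside Flt1, was at 0.255 to 0.464 FPKM in set A, under the filter, and was not tested. On the far side of Flt4 on chromosome 11, both measured neighbours were lower in null, Cnot6 by a difference of -0.74 (limma adjusted p = 0.000100) and Gfpt2, an enzyme of the hexosamine pathway, by -2.06 (0.00109). With 67.5% of all genes called between null and WT, calls of neighbours carry little weight. No hypothesis was tested.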
